A study of Homo sapiens with 6 samples.

Results

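The BCL2 family genes described here are 10 genes of the mitochondrial pathway of cell death, taken by gene symbol from a table of 33644 genes. They are 6 pro-apoptotic members (BCL2L11, BBC3, PMAIP1, BID, BAX and BAK1) and 4 anti-apoptotic members (BCL2, BCL2L1, BCL2A1 and MCL1). All 10 are in the table and all 10 have an adjusted p-value. The members were chosen by symbol, but the family was selected on the means and fold changes of this same comparison, so these values are a description and support no claim that the family stands apart.

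Proteins of this family set whether the outer membrane of the mitochondrion stays closed. BAX and BAK1 are the effectors that form pores in it and release cytochrome c. The anti-apoptotic proteins hold the effectors and the BH3-only proteins in check, and the BH3-only proteins, named for the single homology domain they share with the rest of the family, bind the anti-apoptotic proteins or activate the effectors. In T lymphocytes BCL2L11 is known as a mediator of death after cytokine withdrawal, BCL2 and MCL1 as survival factors, and BCL2A1 as a gene induced by activation.

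By the labels, the series has 3 alt-LAMA3 KO samples and 3 WT samples of HEK293T, all untreated and at day 0, grown in DMEM with fetal bovine serum and antibiotics. HEK293T is a human embryonic kidney line that carries SV40 large T antigen. The name alt-LAMA3 refers to LAMA3, a laminin chain gene. The labels do not say whether the knockout line is 1 clone or whether the samples of a group are separate cultures, so that only technical spread may stand behind the p-values. The values come from a single table of 1 comparison, which holds no value per sample and does not name its groups. The group on top of the fold change is called the numerator group here and the other the denominator group. Which of them is the knockout, if either is, cannot be read from the table, so no direction given below is an effect of the knockout.

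The labelled cell type and the marker genes in the table differed. Of 9 T-cell markers, 8 had a mean normalized count (the authors' average over all libraries, after scaling for depth) of at least 72.0, which is 5 per 1000000 of the summed means, and the highest was 27989 for IL2RA in the authors' deposited table. The exception was CD4, at 1.83. Of 9 markers of HEK293-derived lines, 2 reached that level (UCHL1 among them), and NEFL, NEFM and SALL1 were listed at 0. B-cell and myeloid markers reached it in 0 of 5 genes each, with MS4A1 and PAX5 listed at 0, and NK-cell markers in 1 of 4 genes (NCAM1), with NCR1 listed at 0. Means shared by at least 50 genes, as 1 read in 1 library would give, took 9 values where 6 labelled samples would give 6, and genes at 3 of these values had a log2 fold change of 0. A mean given here may therefore include libraries outside the comparison. Of the 8 T-cell markers tested, 6 were lower in the numerator group at an adjusted p under 0.05 and 0 higher. The log2 fold changes of all 8 ran from -0.97 to -0.14. By the same threshold, 14.8% of all genes tested were lower and 14.7% higher. All 8 markers had a mean of at least 72.0, where 42.6% of genes were called in either direction. The part of these markers in the results below was not tested.

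The regions upstream of the RefSeq starts of PMAIP1 and BCL2L11 are shown because these genes had the largest rise past the threshold and the largest fall among the members. Both were read from RefSeq promoter sequences on GRCh38.p14, on the plus strand. The first is chr18:59899746-59899947, which ends before the first exon of PMAIP1 in GENCODE 29, and its capitals mark a half-site of the cyclic AMP response element, TGACGT read on the opposite strand, a motif bound by factors of the CREB and ATF families. The second is chr2:111120664-111120913. It lies inside the GENCODE 29 span of BCL2L11, which begins further upstream at 111119378, and holds no exon of that annotation, so it is upstream of the RefSeq start but intronic to the longer gene model. Its capitals mark GTAAACA, a core motif of forkhead factors of the FOXO family.
PMAIP1: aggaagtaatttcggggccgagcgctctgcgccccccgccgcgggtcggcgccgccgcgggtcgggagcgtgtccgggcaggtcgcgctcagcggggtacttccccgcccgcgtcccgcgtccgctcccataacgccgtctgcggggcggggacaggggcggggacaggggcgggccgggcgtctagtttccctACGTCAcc
BCL2L11: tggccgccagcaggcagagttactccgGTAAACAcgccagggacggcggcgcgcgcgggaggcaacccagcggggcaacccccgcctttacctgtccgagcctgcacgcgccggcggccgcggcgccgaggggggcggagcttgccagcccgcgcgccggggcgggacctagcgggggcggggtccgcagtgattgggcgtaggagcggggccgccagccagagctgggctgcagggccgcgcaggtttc

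Of 35116 RefSeq promoters, 7.1% held TGACGT and 2.98% held GTAAACA on either strand within 250 bases upstream of the RefSeq start. PMAIP1 was the only member with TGACGT there and BCL2L11 the only one with GTAAACA, among the 9 members with a promoter sequence. These 9 had 14 promoter entries, with repeats for BID and BCL2L1, and a member was counted if any of its entries matched. The shares of all promoters are per entry, so counts of members are not directly comparable with them. CACGTG, the E-box read by MYC and related factors, stood upstream of BAX, BBC3 and BID and in 6.34% of all promoters. TTCNNNGAA, the core motif of STAT factors, stood upstream of BCL2A1 and in 6.57% of all promoters. The NF-kB motif was matched upstream of none of the 9 and in 5.21% of all promoters. These matches describe letters in a window and do not show that a factor binds there.

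PMAIP1, BBC3, BCL2L11 and BID, the BH3-only members, all passed the threshold of an adjusted p of 0.05, and they split into 2 higher and 2 lower in the numerator group. In bulk RNA, fewer cells that express a gene and less of its mRNA per cell cannot be told apart. In the whole table, 4120 of 13957 genes tested (29.5%) passed, 14.7% of those tested being higher and 14.8% lower. Across all 10 members 7 passed, 2 of them higher and 5 lower, and the 3 that did not were BAX, BAK1 and BCL2A1. Calls were more frequent at higher means: of the genes at or above 72.0, 42.6% passed, and so did 7 of the 8 members at that level. Only BCL2A1 and BAK1 were below that mean. The same p-values adjusted over other sets of genes called 7 members over every gene with a p-value (18.0% of those genes called) and 7 over genes at or above 72.0 (45.7%), and 8 over protein-coding genes (32.4%). With the changes centred on the median gene and the p-values recomputed over the same genes, 8 members were called and 29.6% of all genes tested. Stricter tests called fewer. Against a change of 1.5-fold, 3 members were called, and 4.68% of all genes tested. With standard errors multiplied by 2.03, the robust spread of the deposited statistics, 4 members were called, and 8.57% of all genes tested. That spread was taken over all genes tested, those that passed included. It may therefore hold changes between the groups as well as error, and a call lost by it does not show that the deposited error was too small. A version of the 1.5-fold test that sums both tails called 4 members and 5.3% of genes. Below, these are called the 1.5-fold test and the widened errors.

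PMAIP1, which encodes NOXA, a BH3-only protein that mainly binds MCL1 and BCL2A1, was higher in the numerator group by 3.16-fold (95% interval 2.78 to 3.59). The authors' deposited table listed its log2 fold change as 1.66 (SE 0.09, adjusted p = 1.50e-67) at a mean normalized count of 2085. Its change was larger in size than that of 91.9% of all genes tested, and its adjusted p stayed below the threshold under each of the 7 alternatives run on single genes. PMAIP1 spans 59899948 to 59904306 of chromosome 18, plus strand (ENSG00000141682.11; GRCh38 coordinates of GENCODE 29, as for all members below). Its end lies 3.22 Mb from the start coordinate of BCL2, a minus-strand gene on the same chromosome, and the log2 fold changes of these 2 genes had opposite signs.

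BBC3, which encodes PUMA, a BH3-only protein that binds all the main anti-apoptotic proteins, was 1.55-fold higher (95% interval 1.20 to 1.99). In the authors' deposited table its log2 fold change was 0.63 (SE 0.19, adjusted p = 0.00393) at a mean normalized count of 179.7. Its adjusted p was 1.0 in the 1.5-fold test and 0.486 with the widened errors. BBC3 therefore passed only as a difference from 0 with the errors as deposited. The gene spans 47220822 to 47232766 of chromosome 19, minus strand (ENSG00000105327.17).

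BCL2L11, which encodes BIM, which likewise binds all the main anti-apoptotic proteins, had the lowest log2 fold change of the family, -4.16 in the authors' deposited table (SE 1.25, adjusted p = 0.00424), at a mean normalized count of 116.8. Its level was 17.9-fold lower in the numerator group, with a 95% interval from 3.28 to 97.4-fold lower, so the size of the fall is poorly fixed. Its standard error was larger than that of 98.8% of the 855 tested genes whose mean lay within 1.25 times its own, against a median standard error of 0.27 among them. The adjusted p was 0.0820 in the 1.5-fold test (0.0423 with both tails summed) and 0.492 with the widened errors. Shrunk toward 0 with a normal prior of SD 0.61 on the log2 scale, the log2 fold change was -0.80. BCL2L11 spans 111119378 to 111168447 of chromosome 2, plus strand (ENSG00000153094.22) with 25 annotated transcripts, 17 of them protein-coding, and 727 of its exonic bases are shared with MIR4435-2HG on the opposite strand. The labels do not say whether counting used the strand. The part of these transcripts and of this overlap in the large error was not tested.

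BID, the BH3-only protein that caspase-8 cleaves to link death receptors to the mitochondrion, was 2.51-fold lower in the numerator group (95% interval 2.00 to 3.14). The authors' deposited table gave its log2 fold change as -1.33 (SE 0.17, adjusted p = 3.96e-14) at a mean normalized count of 302.8. Its standard error lay at the 48.5th percentile of the 1010 genes with a like mean. The call held in the 1.5-fold test, where the adjusted p was 0.000333, and with the widened errors, where it was 0.00189. BID spans 17734138 to 17774770 of chromosome 22, minus strand (ENSG00000015475.18).

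**Figure D1:**
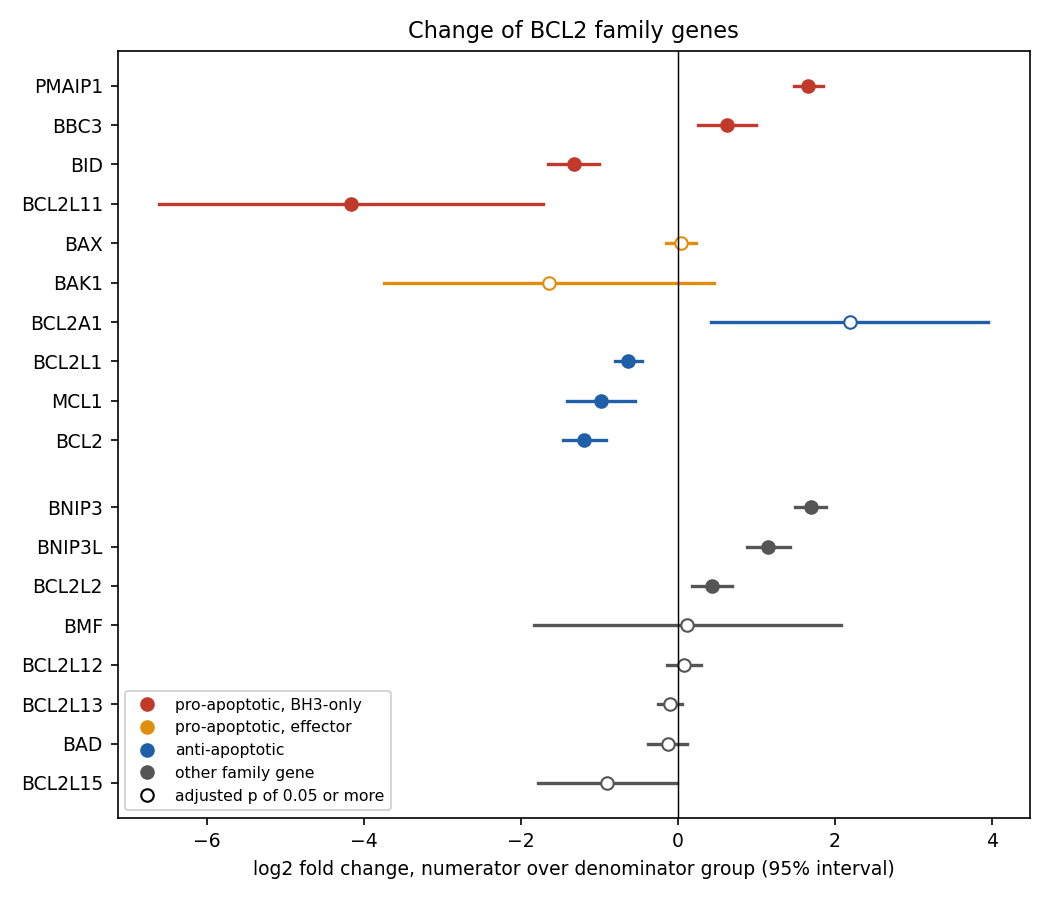
Log2 fold change of the numerator over the denominator group (x axis) for the 10 members by class and for the 8 other BCL2 family genes tested, with 95% Wald intervals from the deposited standard errors. Filled points have an adjusted p under 0.05; PMAIP1 and BBC3 lie to the right of 0, BCL2L11 has the widest interval of the members, and 3 of the 4 anti-apoptotic members lie to the left.

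The effectors BAX and BAK1 did not pass. For BAX the authors' deposited table gave 0.04 as the log2 fold change (SE 0.10, adjusted p = 0.831) at a mean normalized count of 1361, with a 95% interval on the fold from 0.899 to 1.18. For BAK1 the authors' deposited table gave -1.64 (SE 1.07, adjusted p = 0.272) at a mean normalized count of only 23.6. Its interval runs from a 13.4-fold lower to a 1.37-fold higher level, and so takes in both directions. The standard error of BAK1 exceeded that of 93.3% of 670 genes with a like mean. Its 2 processed pseudogenes, BAK1P1 and BAK1P2, had mean normalized counts of 0.908 and 0, and how reads shared with them were counted is not given in the sources used here. BAX spans 48954815 to 48961798 of chromosome 19, plus strand (ENSG00000087088.19) and BAK1 33572547 to 33580293 of chromosome 6, minus strand (ENSG00000030110.12).

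Of the anti-apoptotic members, BCL2, BCL2L1 and MCL1 were lower in the numerator group and BCL2A1 did not pass. BCL2, which binds BIM and BAX at the mitochondrial membrane, was 2.28-fold lower (95% interval 1.88 to 2.77). The authors' deposited table gave it a log2 fold change equal to -1.19 (SE 0.14, adjusted p = 8.71e-16) at a mean normalized count of 2155, the highest mean of the 10 members. The standard error of BCL2 exceeded that of 96.9% of 676 genes with a like mean, yet the adjusted p was 0.000641 against a 1.5-fold change and 0.000791 with widened errors. The gene spans 63123346 to 63320128 of chromosome 18, minus strand (ENSG00000171791.12).

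BCL2L1, whose main product BCL-XL is the anti-apoptotic protein of many cell types and whose shorter splice form is pro-apoptotic, was 1.55-fold lower (95% interval 1.37 to 1.75). The authors' deposited table listed its log2 fold change as -0.63 (SE 0.09, adjusted p = 1.64e-11) at a mean normalized count of 1728. The adjusted p was 0.00750 with widened errors and 1.0 against a 1.5-fold change. A single value per gene does not separate the splice forms. BCL2L1 spans 31664452 to 31723989 of chromosome 20, minus strand (ENSG00000171552.12) and shares 1424 exonic bases with the antisense gene ABALON.

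MCL1, a short-lived protein that NOXA targets, was 1.97-fold lower (95% interval 1.46 to 2.66). The authors' deposited table has -0.98 as its log2 fold change (SE 0.22, adjusted p = 6.39e-05) at a mean normalized count of 353.3. The call was lost in the 1.5-fold test, where the adjusted p was 0.809, and with the widened errors, where it was 0.211. MCL1 spans 150574551 to 150579738 of chromosome 1, minus strand (ENSG00000143384.12).

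BCL2A1, which encodes the NF-kB-induced protein BFL-1, was the only anti-apoptotic member with a positive log2 fold change, given in the authors' deposited table as 2.19 (SE 0.90, adjusted p = 0.0513) at a mean normalized count of 16.9. This lay just outside the threshold. The adjusted p was 0.0475 when only protein-coding genes were adjusted together and 0.0497 with fold changes centred on the median gene, against 0.0774 when every gene with a p-value was included and 0.780 with widened errors. The interval on its fold runs from 1.34 to 15.5. BCL2A1 spans 79960889 to 79971446 of chromosome 15, minus strand (ENSG00000140379.7).

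**Figure D2:**
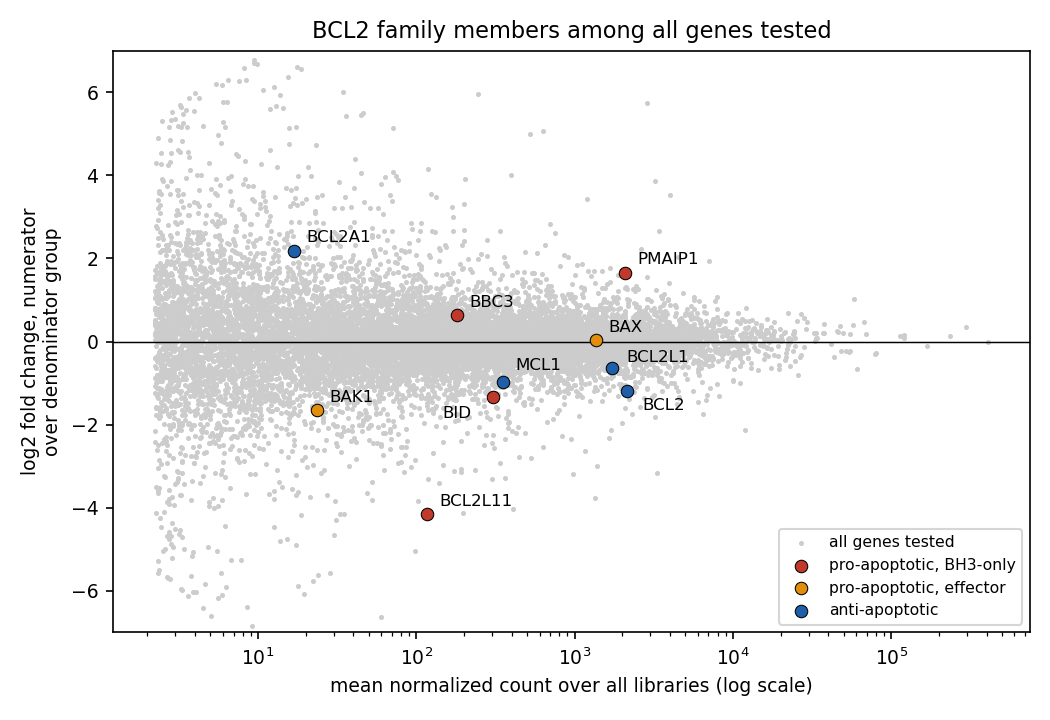
Log2 fold change of the numerator over the denominator group (y axis) against the mean normalized count over all libraries (x axis, log scale) for the 13957 genes tested in grey and the 10 members in colour by class; 12 tested genes beyond a log2 fold change of 7 in either direction are not drawn. BCL2L11 lies at the lower edge of the genes of its mean, PMAIP1 at the upper edge and BAX in the middle.

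Set against each other as classes, the changes overlapped in range, and the size of the gap between the classes depended on the summary used. The median log2 fold change was -0.64 for the 6 pro-apoptotic members, ranging from -4.16 to 1.66, and -0.81 for the 4 anti-apoptotic members, ranging from -1.19 to 2.19. The median over all genes tested was 0.00, and the difference of the class medians, pro-apoptotic minus anti-apoptotic, was 0.16. The pro-apoptotic median lies between BID, BAK1 and BCL2L11 on the lower side and PMAIP1, BBC3 and BAX on the other, and it moved with the summary used. It was 0.04 for the 5 pro-apoptotic members at or above a mean of 72.0, against -0.98 for the 3 such anti-apoptotic members, and with shrunken fold changes it was -0.18, against -0.74 for the anti-apoptotic members. A mean weighted by the inverse squared error, which PMAIP1 and BAX dominate, was 0.56 for the pro-apoptotic and -0.79 for the anti-apoptotic members. No test was made of these medians, since genes are not replicates of a class.

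The median absolute log2 fold change was 1.26 over the 10 members and 0.37 over all genes tested, and 4 of the 10 members both passed and changed at least 2-fold (PMAIP1, BCL2L11, BID and BCL2), where 8.04% of all genes tested did. Of these 4, 3 are pro-apoptotic and 1 is anti-apoptotic, and PMAIP1 was the 1 that was higher. Since the family was chosen with these values known, the comparison describes it and is no evidence of its own.

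Levels were compared per kilobase of merged exon, since longer mRNAs yield more fragments. They rest on the mean over all libraries, which pools the 2 groups. The 3.16-fold rise of PMAIP1 and the 1.55-fold fall of BCL2L1 therefore enter them, and the order within either group is not given. In this pooled mean PMAIP1 led the family at a mean normalized count of 933 per kb, higher than 96.6% of all genes tested. BAX followed at 526 per kb and BCL2L1 at 521 per kb, both near the 93rd percentile (93.1 for BAX and 93.0 for BCL2L1). BCL2 had 183 per kb, MCL1 80.8, BID 68.1 and BBC3 56.5 per kb, all above the median of 34.6 per kb over all genes tested. BCL2L11 at 17.5 per kb, BCL2A1 at 15.5 and BAK1 at 10.7 per kb lay below that median. No error over samples can be given for these levels, so it is not known which neighbours in this order differ beyond their spread.

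Within each class a few genes held most of the level. PMAIP1 made up 57.9% of the summed level of the pro-apoptotic members and BAX 32.6%, while BAK1 made up 0.663%. BCL2L1 made up 65.1% of the summed level of the anti-apoptotic members, BCL2 22.9%, MCL1 10.1% and BCL2A1 1.94%. The summed level was 1612 per kb for the pro-apoptotic and 801 per kb for the anti-apoptotic members, a ratio of 2.01. The medians had the opposite order, at 62.3 per kb for the pro-apoptotic and 132 per kb for the anti-apoptotic members, a ratio of 0.472. Which class is higher in these pooled means therefore depends on whether the class is summed or its median taken. The shares and ratios were not computed within a group. PMAIP1 was higher in the numerator group and BCL2L1 and BCL2 were lower, so the shares and the ratio of sums need not hold in either group. The levels of single genes also depend on the length used. With the median coding transcript as length, BCL2L1 had 1891 and BAX 2520 per kb, both above PMAIP1 at 1299 per kb. BCL2L11 had 76.7 per kb by that length, against 17.5 per kb of merged exon. Its place below the median of all genes tested was read for merged exon only.

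**Figure D3:**
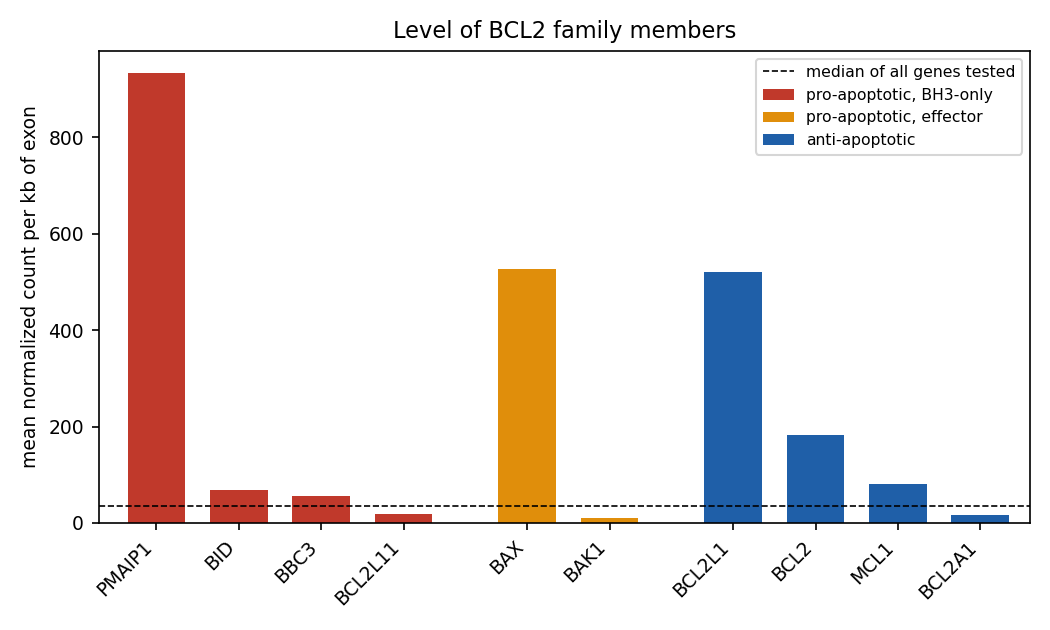
Mean normalized count per kb of merged exon (y axis, bars from 0) for the 10 members, pro-apoptotic BH3-only and effector members on the left and anti-apoptotic members on the right, with the median of all genes tested as a dashed line. PMAIP1, BAX and BCL2L1 stand at 521 per kb or more, and BCL2L11, BAK1 and BCL2A1 lie below the dashed line; no error over samples is known.

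The 3 members with the largest changes in size after BCL2L11, namely BCL2A1, PMAIP1 and BAK1, had errors of very different size. PMAIP1 had a standard error of 0.09 on the log2 scale, while BCL2A1 had 0.90 and BAK1 1.07. The median standard error was 0.14 for tested genes at or above 72.0 and 0.80 for those below. For BCL2A1 the error was larger than that of 81.9% of 623 genes with a like mean, and for MCL1 larger than that of 83.8% of 983 such genes. BBC3 was measured more tightly than most, with an error above that of 28.0% of 950 such genes.

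**Figure D4:**
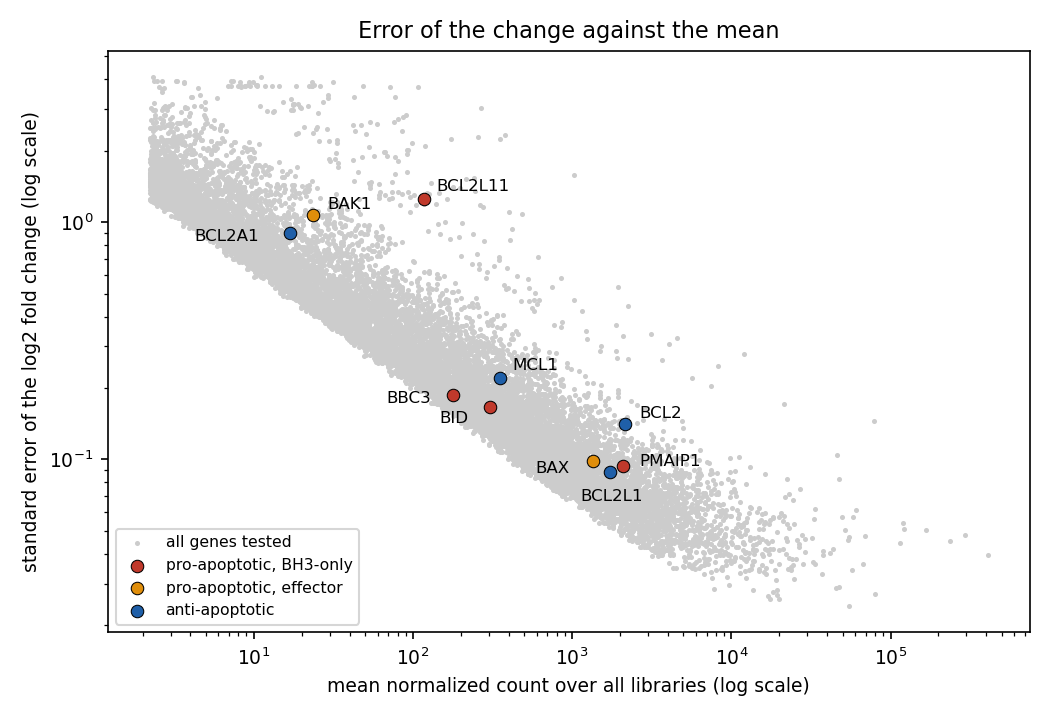
Standard error of the log2 fold change (y axis, log scale) against the mean normalized count (x axis, log scale) for all genes tested in grey and the 10 members in colour by class. BCL2L11, with a standard error of 1.25 at a mean of 116.8, lies far above the genes of its mean, while BID and BBC3 lie within them.

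Among BCL2 family genes outside the 10 members, BNIP3, BNIP3L and BCL2L2 passed, all higher in the numerator group. Of 13 such genes listed, 12 are in the table and 8 were tested; 3 were higher in the numerator group, 0 were lower and 5 did not pass. Of the 8, 7 had a mean of at least 72.0, where 42.6% of all genes tested passed. The median log2 fold change of the 8 was 0.10, beside 0.00 over all genes tested and -0.81 over the 10 members. BNIP3 and BNIP3L, BH3-like receptors of mitophagy, were at 1.69 (SE 0.10) and 1.15 (SE 0.14) in the authors' deposited table, and both are also known targets of the hypoxia-inducible factor. BCL2L2, which encodes the anti-apoptotic protein BCL-W, was at 0.43 in the authors' deposited table (SE 0.13, adjusted p = 0.00473). It shares 813 exonic bases with the read-through gene BCL2L2-PABPN1 on the same strand, which had a mean normalized count of 25.2, so that reads could be split between them. Among the pro-apoptotic genes of this list, BAD was at -0.13 (SE 0.13) and BMF at 0.12 (SE 1.00) in the authors' deposited table, and neither passed. BCL2L12 at 0.08 (SE 0.11), BCL2L13 at -0.10 (SE 0.08) and BCL2L15 at -0.90 (SE 0.45) in the authors' deposited table did not pass either. BCL2L10, BCL2L14 and HRK had means under 2, too low to be given an adjusted p, and BOK, an effector-like gene, was listed at 0.

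Downstream of the pore, 3 of 19 tested genes were higher in the numerator group, 6 were lower and 10 did not pass, with a median log2 fold change of -0.06 and none of the 9 changed as much as 2-fold. Over all genes tested 29.5% passed, and 42.6% of those with a mean of at least 72.0. As 17 of the 19 had such a mean, the 9 that passed are near the latter share. The largest called changes were falls of DFFA, the inhibitor of the apoptotic nuclease, at -0.91 (SE 0.20) and of XIAP, which inhibits caspases, at -0.79 (SE 0.18) in the authors' deposited table. BIRC5, the survivin gene, was at 0.52 (SE 0.14), VDAC1, the main channel of the outer membrane, at 0.50 (SE 0.07), and BIRC6 at -0.43 (SE 0.07) in the authors' deposited table. APAF1, which assembles the apoptosome, passed with a small fall, given in the authors' deposited table as -0.18 (SE 0.06). CASP9 at -0.06 (SE 0.16) and CYCS, cytochrome c, at 0.21 (SE 0.10) in the authors' deposited table did not pass.

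Of the factors known to control transcription of members, 4 of 14 tested were higher, 3 were lower and 7 did not pass, with a median log2 fold change of -0.02. All 14 had a mean of at least 72.0, so the 7 that passed are also near the 42.6% of genes at that level. TP73 was at 0.92 (SE 0.29), MYC at 0.73 (SE 0.14) and NFKB1 at 0.70 (SE 0.10) in the authors' deposited table. ATF4, which can activate PMAIP1, was at 0.51 (SE 0.06) in the authors' deposited table. FOXO factors are known activators of BCL2L11, and the authors' deposited table gave -0.43 (SE 0.09) for FOXO3 and -0.59 (SE 0.17) for FOXO4. FOXO1 had a mean normalized count of 0.849 and no adjusted p. An mRNA level does not give the activity of these factors.

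Of the proteins known to bind, cleave or turn over members, 4 of 12 tested were higher, 2 were lower and 6 did not pass, with a median log2 fold change of 0.18. Among these 12 genes 11 had a mean of at least 72.0, and the 6 that passed are again near the 42.6% at that level. USP9X, a deubiquitinase that stabilises MCL1, was at 1.48 (SE 0.27), and HUWE1, a ubiquitin ligase that marks MCL1 for degradation, at 0.50 (SE 0.06) in the authors' deposited table. BAG1, a co-chaperone that binds BCL2, was at -0.84 (SE 0.11), BAG3 at 0.55 (SE 0.16) and ARIH1, a ubiquitin ligase, at 0.26 (SE 0.05) in the authors' deposited table. CASP8, which cleaves BID, did not pass, at -0.12 (SE 0.08) in the authors' deposited table.

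**Figure D5:**
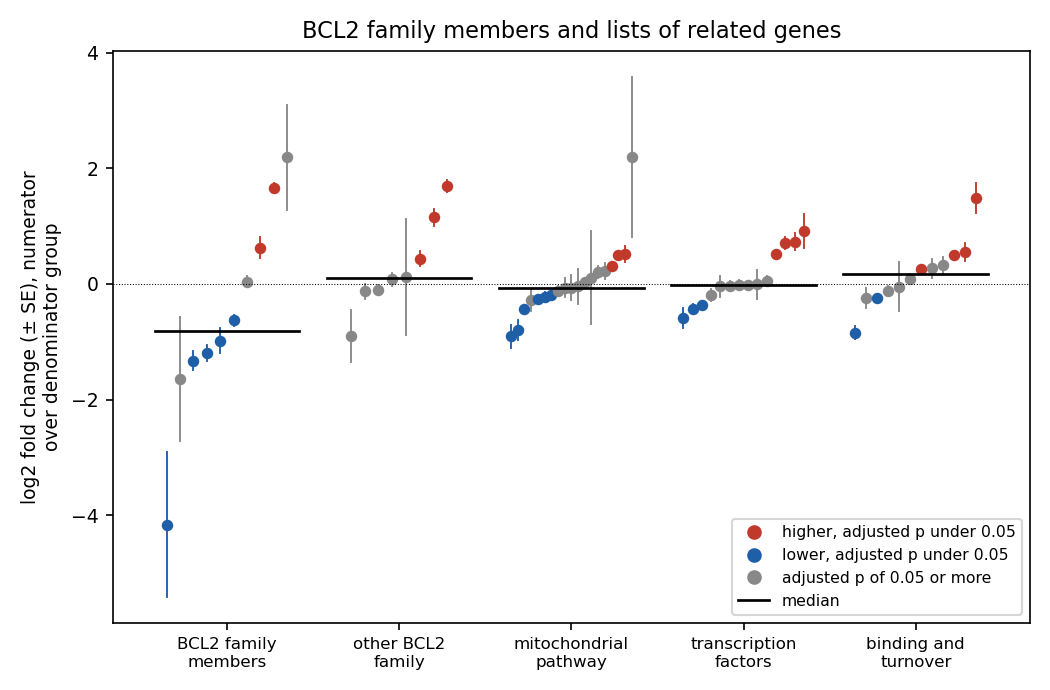
Log2 fold change of the numerator over the denominator group (y axis, points with ± 1 SE bars) for the 10 members and for the 4 lists of related genes, limited to genes with an adjusted p and sorted by value within each list; black lines are medians. The members spread from -4.16 to 2.19 around a median of -0.81, while the medians of the other lists lie between -0.06 and 0.18.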

How the data were processed

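The labels give 3 alt-LAMA3 KO and 3 WT samples. The submitters' processing notes list STAR, Salmon and hg38. The values were used as the authors deposited them. Per the file headers, the mean normalized count, a signal averaged by the authors over all libraries after scaling, is a baseMean. The change and its standard error are log2 values that the authors deposited. The statistic, a score deposited beside them, equals their ratio to within 4.23e-07. The deposited p-value is two-sided, and its adjusted form matches Benjamini-Hochberg adjustment over 13957 genes to within 3.66e-07. The program, model and groups behind the comparison are not stated, and the depth of each library is not known.

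Gene IDs were matched without version to symbols (33483 of 33644) and to GENCODE 29 (33582), which gave positions and exon lengths. Intervals of 95% are the change ± 1.96 standard errors. The members, the lists of related genes and the motifs were chosen with earlier results of these data known. Every member is named, every tested other family gene, and from each further list up to 5 called genes with a mean of 72.0 or more and the largest changes. Further genes of those lists (APAF1, CASP9, CYCS, FOXO1, FOXO3 and CASP8) were named after their values were seen, and some genes of the lists, which are counted, and 1 motif searched are not reported here. Alternatives were other adjustments, tests against a 1.5-fold change, widened errors, centred or shrunken changes (a normal prior matched to the largest 5% of changes) and other lengths. The functions were tested on simulated data. Python 3.11.15, numpy 2.4.6, pandas 2.3.3, scipy 1.17.1 and matplotlib 3.10.9 were used.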

Additional observations from a re-analysis of the deposited data

How the results depend on the processing

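Of the 10 members, 7 passed the threshold (2 higher and 5 lower in the numerator group), where 29.5% of all genes tested did, and 42.6% of those with a mean of 72.0 or more. Against a 1.5-fold change 3 passed (1 higher, 2 lower), where 4.68% of all genes tested did. With the tails of that test summed, an alternative chosen after seeing the data, 4 passed (1 higher, 3 lower), the added one being BCL2L11, whose adjusted p was then 0.0423. With widened errors 4 passed (1 higher, 3 lower), where 8.57% of all genes did. PMAIP1, BCL2 and BID passed in each of these. The count was 7 or 8 under the other 4 alternatives, BCL2A1 being the one added. Of 68 single-gene values under alternatives, 56 kept their side of the threshold, 10 lost it, 2 gained it and 0 changed sign. The difference of class medians, pro-apoptotic minus anti-apoptotic, was 0.16, and became 0.56 with shrunken changes, 1.35 with weighted means, 1.02 for members with a mean of 72.0 or more and 0.59 with other family genes added. The pro-apoptotic median, -0.64 as deposited, was -0.18 with shrunken changes, 0.56 as a weighted mean, 0.040 for members with a mean of 72.0 or more and -0.044 with other family genes added. The level ratio of the classes, from means that pool the 2 groups, was 0.472 by median and 2.01 by sum. The cause of these shifts was not tested beyond the construction of each summary. BAK1 and BCL2A1 had means of 23.6 and 16.9, and errors of 1.07 and 0.90 that exceeded those of 93.3% and 81.9% of genes with a like mean. No paired analysis was possible because the table holds no values per sample, and for the same reason leaving out single replicates was not run.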
